A study of Mus musculus with 12 samples.

Results

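The genes described here are the Wnt ligands, their receptors and their secreted antagonists, with the R-spondins and a few nuclear effectors of the pathway. They were chosen by gene symbol: all Wnt, Fzd, Sfrp, Dkk and Rspo genes of the numbered series, Lgr4, Lgr5, Lgr6, Lrp5, Lrp6, Ror1, Ror2, Wif1, Notum, Axin2, Lef1 and Tcf7. The rule found 53 of the 38924 genes in the count files. They comprise 19 ligands, 10 Frizzled receptors, 4 co-receptors or Ror receptors, 10 secreted antagonists, 7 R-spondins or Lgr receptors, and 3 nuclear effectors or feedback genes. RNA was sequenced from cells sorted from mouse embryos at E7.25, the stage of gastrulation when the early mesoderm and endoderm have formed. Every library came from the line Foxa2Cre:Rosa26-YFP, in which Cre recombinase expressed under Foxa2 control permanently switches on a yellow fluorescent protein (YFP), so that YFP marks a history of Foxa2 expression and not its present level. The 4 groups, with 3 libraries each, were YFP-positive cardiac mesoderm (labelled ventricular), YFP-negative cardiac mesoderm (labelled non-ventricular), endoderm sorted on the surface protein EPCAM, and hematopoietic mesoderm sorted on the receptor KDR. The labels state neither the YFP state of the last 2 groups, nor how the cardiac cells were gated, nor whether libraries came from separate embryos or pools. The p-values therefore measure the spread between these libraries, which may be partly technical. The edgeR tests used a spread of each gene shared over the 4 groups, so the p-value of a pair also reflects groups outside it.

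Wnt proteins are secreted lipid-modified ligands that bind Frizzled receptors together with the co-receptors Lrp5 or Lrp6, which stabilizes beta-catenin and lets it act with TCF/LEF factors in the nucleus. Other Wnt proteins, Wnt5a among them, signal through Ror receptors and the planar polarity branch. Secreted proteins of the Sfrp and Dkk families block the ligands or the co-receptors, and R-spondins acting through Lgr receptors prolong the signal. In the gastrulating embryo Wnt signalling is needed to form mesoderm, and its later inhibition by signals from the neighbouring endoderm is a known step towards cardiac fate.

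Between 4472800 and 7888631 reads per library were assigned to genes, which was 18.3% to 21.5% of the tallied reads. Levels are given as CPM, the counts scaled to library size with the trimmed mean of M values (TMM), and 3 counts corresponded to between 0.357 and 0.723 CPM. The sort markers followed the labels: Epcam lay at 204 to 240 CPM in endoderm and at 1.04 to 68.9 CPM elsewhere, and Kdr at 665 to 965 CPM in hematopoietic mesoderm, 444 to 622 CPM in both cardiac types and 4.79 to 16.4 CPM in endoderm. The summed level of 10 cardiac mesoderm markers was 916 to 1285 CPM in the cardiac libraries, 117 to 200 CPM in endoderm and 196 to 761 CPM in hematopoietic mesoderm, where library 3 was the highest. Tnnt2, a contractile gene, was at 0 in all YFP-positive cardiac libraries, and Nkx2-5 did not exceed 9.05 CPM in any cardiac library. The summed level of 14 endoderm markers was 2045 to 4049 CPM in endoderm, 30.4 to 153 CPM in YFP-positive cardiac mesoderm with library 3 the highest, 31.8 to 108 CPM in YFP-negative cardiac mesoderm and 34.2 to 214 CPM in hematopoietic mesoderm. Of those 14 markers, 13 had more than 3 counts over the 3 libraries in the YFP-positive, 10 in the YFP-negative and 10 in the hematopoietic libraries. Foxa2 and Amn were at 0 in every YFP-negative library. The endoderm libraries also had the highest summed level of 8 primitive streak and epiblast markers, at 1816 to 1991 CPM against 694 to 1613 CPM elsewhere. The sum of 5 neural ectoderm markers was 39.4 to 61.0 CPM in endoderm and at most 3.89 CPM elsewhere. The part of other EPCAM-bearing cells in the endoderm levels was not tested.

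Many of the ligand genes were at or near 0. Of the 53 genes, 34 passed the filter on low counts and were tested, and 19 were not, among them 10 of the 19 ligands. Wnt1, Wnt10b and Wif1 had no count in any library, which allows at most 3 counts in each. Wnt6, Wnt10a, Rspo2, Dkk2 and Dkk4 never exceeded 3 counts in a library. The other 11 untested genes were Wnt3a, Wnt7a, Wnt7b, Wnt8b, Wnt9a, Wnt11, Fzd9, Lgr6, Rspo4, Notum and Sfrp4, which passed 3 counts in at least 1 library and reached at most 12.6 CPM (Wnt7b in endoderm library 3). Only 18 genes exceeded 3 counts in all 12 libraries: Wnt2b, Wnt3, Wnt5a, Fzd2, Fzd3, Fzd4, Fzd5, Fzd7, Lrp5, Lrp6, Sfrp1, Sfrp2, Lgr4, Lgr5, Rspo3, Axin2, Lef1 and Tcf7. Endoderm had 30 of the genes above 3 counts in all its libraries, YFP-negative cardiac mesoderm 25, YFP-positive cardiac mesoderm 21 and hematopoietic mesoderm 19.

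The fit across all genes asked which of these genes varied over the 4 types at all. It called 8 of the 34 tested, beside 6.03% of all 14170 genes tested: the ligands Wnt5a and Wnt5b, the receptors Fzd5, Fzd6, Fzd7 and Ror1, the antagonist Sfrp1 and the R-spondin Rspo3. Their adjusted p-values ran from 0.000427 for Fzd5 to 0.0421 for Fzd6, and 19 of the 34 genes had an unadjusted p under 0.05, beside 22.2% of all genes. One gene, Fzd5, was higher in endoderm than in each other type, a pattern shown by 0.303% of all genes. None was higher in hematopoietic mesoderm than in each other type (0.0917% of all genes), and none in either cardiac type (0.0% of all genes for each), with edgeR, DESeq2 or voom. The calls of Fzd5, Fzd7 and Rspo3 held in all 18 alternative fits. Wnt5a was lost without endoderm library 2 or 3 (adjusted p 0.0738 and 0.0753), and Ror1 without endoderm library 1, 2 or 3 (0.0560, 0.0632 and 0.0507). Sfrp1 was lost without any 1 of the YFP-negative or endoderm libraries (0.0578 to 0.0885), and Fzd6 without any 1 of the YFP-negative, endoderm or hematopoietic libraries (0.0506 to 0.127). Fewer transcripts per cell and fewer expressing cells cannot be told apart in these bulk libraries. The heat map of levels by library sets out the 24 genes that were called or reached a mean of 30 CPM in some type.

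**Figure D1:**
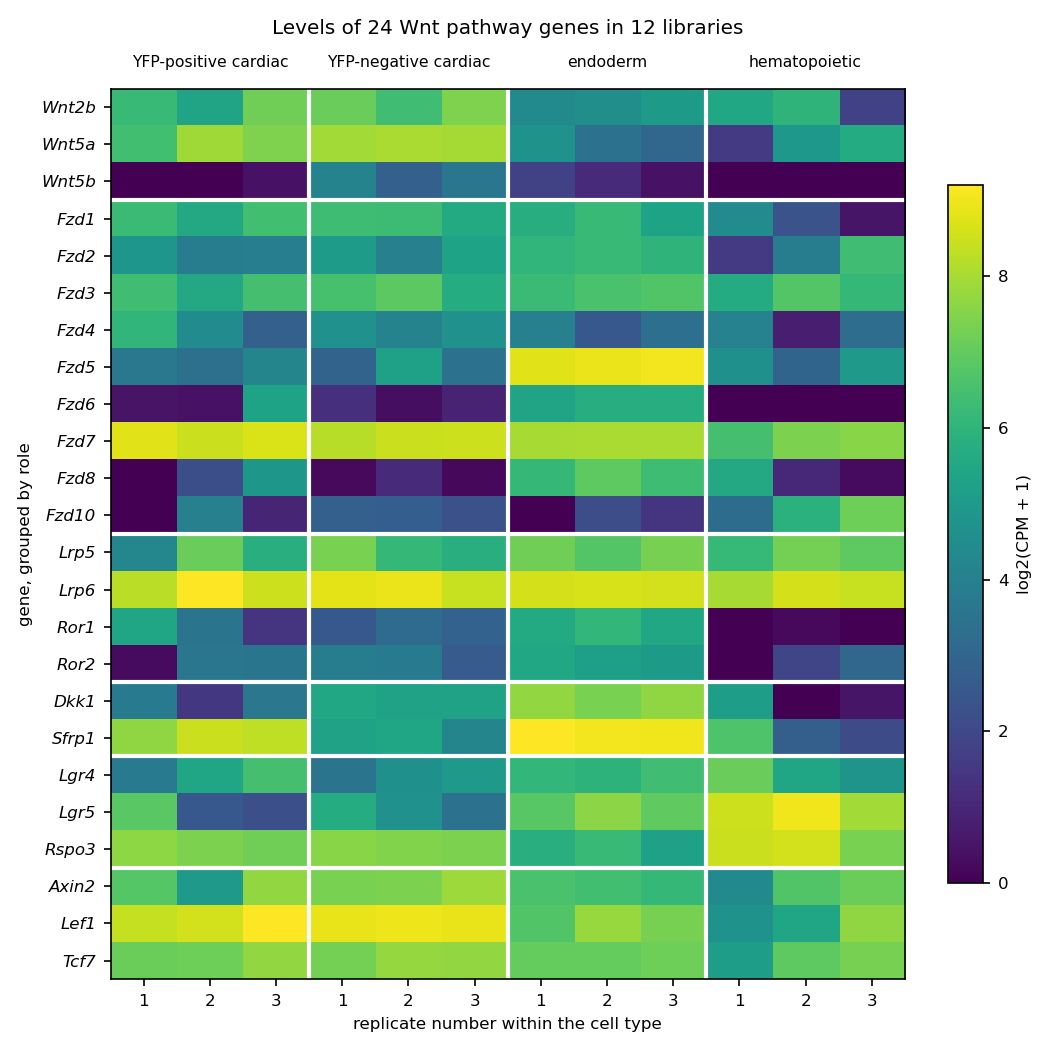
Levels of the 24 genes (rows, grouped by role from ligands at the top to nuclear effectors at the bottom) in the 12 libraries (columns, numbered within each type), as log2 of CPM plus 1. Fzd5 is brightest in the 3 endoderm libraries, Wnt5a in the 6 cardiac libraries, and Fzd6 is dark in every hematopoietic library.

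Among the ligands, Wnt5a had its highest levels in cardiac mesoderm. The gene, best known for signalling through Ror receptors and for guiding cell movement, was at 84.9, 235 and 171 CPM in YFP-positive cardiac mesoderm and at 246, 264 and 247 CPM in YFP-negative cardiac mesoderm. It was at 24.7, 10.1 and 7.13 CPM in endoderm and at 1.93, 28.9 and 49.6 CPM in hematopoietic mesoderm. No cardiac library overlapped an endoderm or hematopoietic one. Against hematopoietic mesoderm neither cardiac type passed with edgeR (adjusted p 0.112 for YFP-positive, 0.0900 for YFP-negative) or voom (0.263 and 0.102). DESeq2 called both (0.00545 and 0.000407). Against endoderm the log2 difference was 4.18 ± 0.85 (SE) for the YFP-negative cells, with an adjusted p of 0.0265, and 3.55 ± 0.82 for the YFP-positive cells, with an adjusted p of 0.0522. With the replicate number as a block, the YFP-negative difference had an adjusted p of 0.0738. It passed in none of the 6 fits that left out 1 library, where adjusted p ran from 0.0720 to 0.172. DESeq2 (9.7e-07), voom (4.5e-05) and a fit of only the 2 types compared (0.00056) did call it. The YFP-positive difference from endoderm was called by the same 3 fits (6.3e-05, 0.00074 and 0.0177). The cardiac types differed by -0.62 ± 0.74 in log2 (YFP-positive minus YFP-negative), adjusted p 0.948, although all 3 YFP-negative libraries lay above the YFP-positive ones.

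Wnt5b, the close relative of Wnt5a, was low everywhere and separated the cardiac types by detection. It was at 16.3, 6.03 and 11.3 CPM in YFP-negative cardiac mesoderm, and at 0, 0 and 0.370 CPM in YFP-positive cardiac mesoderm. In endoderm it was at 2.54, 1.17 and 0.357 CPM, and it was at 0 in all 3 hematopoietic libraries. Against the floor of 3 counts per library, the YFP-negative mean of Wnt5b was at least 19.5-fold that of the YFP-positive cells, but the difference did not pass the test (adjusted p 0.626). The test over the 4 types called Wnt5b with an adjusted p of 0.0387, which became 0.0989 with the replicate block and 0.0522 with a minimum of 5 CPM. It also did not pass without YFP-positive library 1 or 2, hematopoietic library 1 or 2, or any 1 of the YFP-negative or endoderm libraries (0.0502 to 0.116).

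No other ligand passed a test between types with edgeR, while DESeq2 and voom called some of them. Wnt2b, a ligand of the beta-catenin branch, had 75.1, 40.3 and 146 CPM in the YFP-positive and 137, 82.5 and 170 CPM in the YFP-negative cardiac libraries. Endoderm had 20.2, 22.5 and 31.7 CPM, with edgeR adjusted p of 0.293 (YFP-positive) and 0.233 (YFP-negative). For the YFP-negative cells DESeq2 (0.0435) and voom (0.00184) called this difference. The hematopoietic libraries had 45.1, 62.5 and 2.52 CPM of Wnt2b and overlapped endoderm. Wnt8a was at 15.4, 18.9 and 26.7 CPM in endoderm and at 0 in 8 of the other 9 libraries. The exception was YFP-negative library 3 with 16.2 CPM. DESeq2 and voom called Wnt8a for endoderm against YFP-positive cardiac (4.4e-13 and 0.0192) and against hematopoietic mesoderm (4.1e-23 and 0.0319). EdgeR gave 0.154 and 0.0972 for these. DESeq2 also gave 2.4e-19 for YFP-negative cardiac against hematopoietic mesoderm (edgeR 0.219, voom 0.723), where only YFP-negative library 3 had counts. In each of these comparisons 1 type was at 0 throughout. The log2 differences fitted by DESeq2 were -21.9, 28.9 and 27.0, which are not bounds. Wnt3, which is needed to start gastrulation, ranged from 5.67 to 34.2 CPM over the 12 libraries and overlapped between all types. Wnt2 was at 0 in all endoderm libraries and ranged from 0 to 29.3 CPM in the mesoderm libraries. DESeq2 called Wnt2 for endoderm against YFP-positive cardiac (0.00316), YFP-negative cardiac (0.00347) and hematopoietic mesoderm (0.00231). Voom called it against the YFP-positive (0.0295) and YFP-negative (0.00375) cells only.

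Of the Frizzled receptors, Fzd5 separated endoderm from every mesoderm type. Fzd5 was at 443, 489 and 530 CPM in endoderm. It was at 11.9, 9.48 and 17.2 CPM in YFP-positive cardiac, 6.54, 37.4 and 9.70 CPM in YFP-negative cardiac and 23.6, 6.75 and 29.6 CPM in hematopoietic mesoderm. The lowest endoderm library was thus far above the highest mesoderm library, and the 3 mesoderm types overlapped each other. The log2 difference of endoderm was 4.61 ± 0.68 from hematopoietic mesoderm (adjusted p 0.00236). YFP-positive cardiac mesoderm was lower than endoderm, at -5.24 ± 0.70 (adjusted p 0.00195), and so was YFP-negative cardiac mesoderm, at -4.76 ± 0.68 (adjusted p 0.00333). These 3 calls held in all 13 alternative fits of each pair, with adjusted p no higher than 0.0211.

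Fzd7 had its highest means in cardiac mesoderm. It was at 446, 352 and 407 CPM in the YFP-positive and 298, 357 and 361 CPM in the YFP-negative cardiac libraries. Endoderm had 257, 263 and 261 CPM and hematopoietic mesoderm 89.1, 165 and 190 CPM, so that neither overlapped the other or a cardiac type. Fzd7 was higher than in hematopoietic mesoderm by 1.44 ± 0.24 in log2 in the YFP-positive cells (adjusted p 0.0114) and by 1.19 ± 0.23 in the YFP-negative cells (adjusted p 0.0405). The first call was lost with voom (0.0644) and with only the 2 types fitted (0.192). The second was lost with the replicate block (0.0646), with voom (0.0550), with only the 2 types (0.170) and without YFP-negative library 1, 2 or 3 (0.0800, 0.150 and 0.144). The endoderm level differed from the hematopoietic one by 0.81 ± 0.23, with an adjusted p of 0.0572 with edgeR, 0.0587 with voom and 0.00879 with DESeq2. Against endoderm the cardiac types did not pass with edgeR (adjusted p 0.189 for YFP-positive, 0.738 for YFP-negative), while voom called both (0.0167 and 0.0337).

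The sequences just upstream of both genes are shown because Fzd5 and Fzd7, on the same chromosome, had the calls described above. Each is the 250 bases before the RefSeq start (GRCm38.p6, the assembly also called mm10), read 5′ to 3′ on the strand of the gene. Capitals mark TCF/LEF words, searched on both strands as the words CTTTGAT and CTTTGAA and the words CTTTGTT and CTTTGTA. The Fzd5 window is chr1:64737751-64738000 on the minus strand, and the Fzd7 window is chr1:59481897-59482146 on the plus strand.
Fzd5: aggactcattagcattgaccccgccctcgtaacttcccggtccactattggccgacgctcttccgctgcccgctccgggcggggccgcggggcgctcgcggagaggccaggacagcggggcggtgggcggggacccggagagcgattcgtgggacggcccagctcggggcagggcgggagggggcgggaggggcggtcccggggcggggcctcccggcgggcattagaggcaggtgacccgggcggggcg
Fzd7: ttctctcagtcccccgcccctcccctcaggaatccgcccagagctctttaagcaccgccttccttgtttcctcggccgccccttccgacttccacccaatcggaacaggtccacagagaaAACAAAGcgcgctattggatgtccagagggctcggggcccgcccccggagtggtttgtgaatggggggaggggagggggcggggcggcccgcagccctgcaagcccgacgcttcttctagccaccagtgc
The Fzd7 window held 1 such word, AACAAAG, which is CTTTGTT read on the other strand, from 130 to 124 bases before the start. The Fzd5 window held none of these letters, and its GC content was 76.4%, against 65.2% for Fzd7. A TCF/LEF word occurred in 14.8% of 32851 windows of the same length over all genes and in 5 of the 42 windows found for 35 of the 53 genes. These are matches of letters and not measured binding.

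Fzd6, a receptor linked to planar polarity, was at 40.1, 52.7 and 52.6 CPM in endoderm and at 0 in all 3 hematopoietic libraries. The endoderm mean was at least 77.7-fold the hematopoietic mean against a floor of 3 counts per library (adjusted p 0.0296). The call did not hold without any 1 of the 6 libraries, with adjusted p from 0.0504 to 0.0884. YFP-negative cardiac mesoderm had 1.34, 0.280 and 0.869 CPM. In YFP-positive cardiac mesoderm Fzd6 was at 0.416 and 0.365 CPM in libraries 1 and 2 and at 39.6 CPM in library 3. That library also had the highest summed endoderm markers of its type (153 CPM), of which Cdh1 gave 59.2, Epcam 39.4 and Cldn6 21.1 CPM and the other 11 markers between 0.185 and 8.88 CPM each. YFP-negative library 3 had a sum of 108 CPM, 55.6 CPM of it from Cdh1, beside 0.869 CPM of Fzd6. The part of other cells in the Fzd6 value was not tested.

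Fzd8 resembled Fzd6 in its endoderm level but varied more. It was at 68.7, 120 and 79.6 CPM in endoderm, at most 1.12 CPM in YFP-negative cardiac mesoderm, and at 0, 3.65 and 28.5 CPM in the YFP-positive libraries. The hematopoietic libraries had 45.8, 1.04 and 0.210 CPM, and no pair of types passed for Fzd8 with edgeR. YFP-negative cardiac mesoderm against endoderm had an adjusted p of 0.131 with edgeR, 9.8e-05 with DESeq2 and 0.00232 with voom. Fzd10 was at 8.43, 58.4 and 142 CPM in hematopoietic mesoderm and did not exceed 15.1 CPM elsewhere, with an adjusted p against endoderm of 0.0983 with edgeR, 0.00392 with DESeq2 and 0.0152 with voom. Fzd1 was at 39.3 to 85.3 CPM in the 9 cardiac and endoderm libraries and at 20.7, 4.16 and 0.420 CPM in hematopoietic mesoderm, with no overlap and adjusted p of 0.0898 to 0.138 with edgeR, where DESeq2 gave 0.00399 to 0.00914. Fzd2, Fzd3 and Fzd4 had means of up to 67.3, 91.0 and 30.6 CPM in a type and no pair of types passed with edgeR, DESeq2 or voom.

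The plot of the called genes by library shows these levels on a linear scale.

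**Figure D2:**
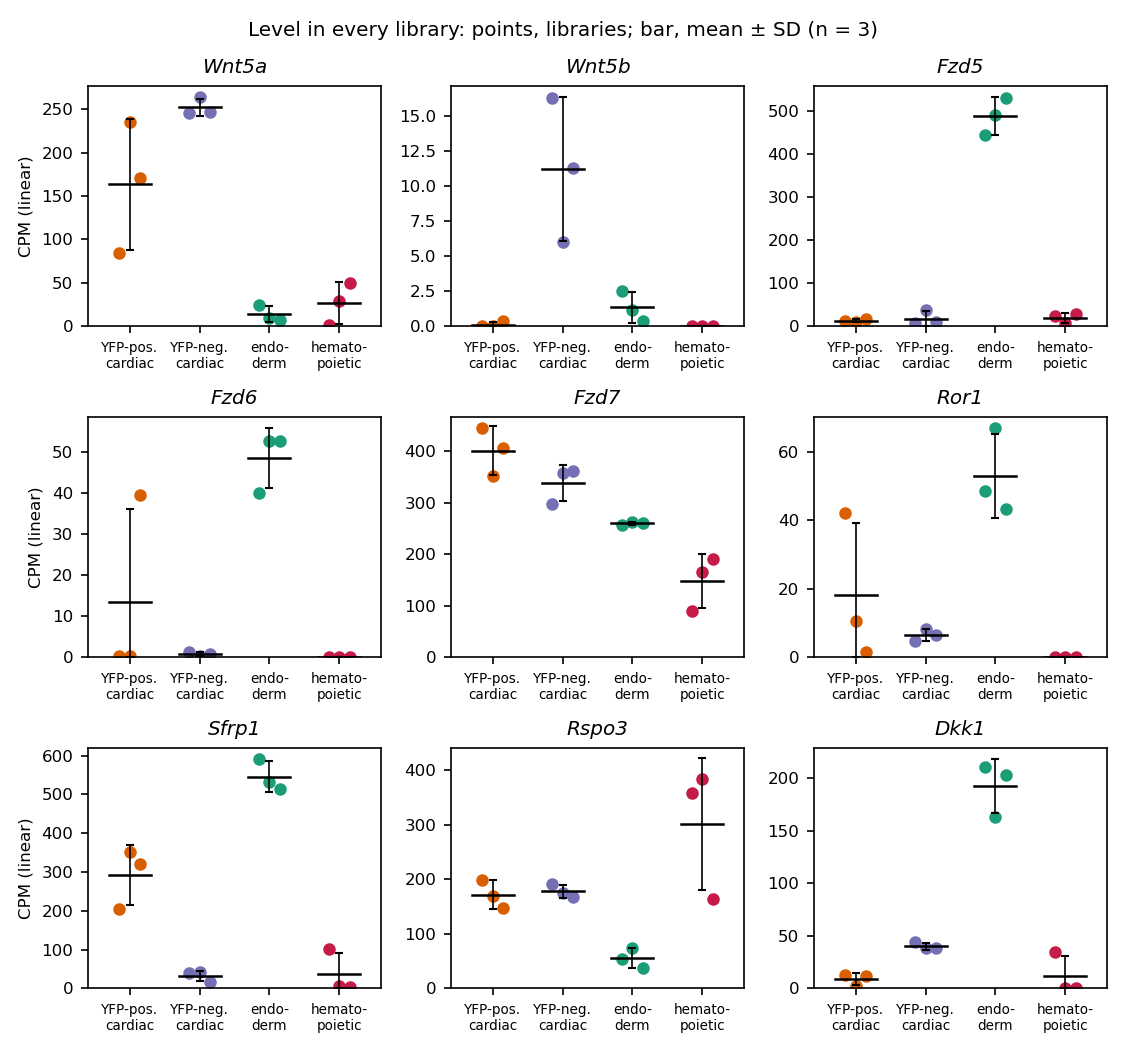
CPM (linear axis from 0) of the 8 genes called over the 4 types and of Dkk1 in each library, with points for libraries, a bar for the mean and whiskers for the SD of 3 libraries (cut at 0). The endoderm points of Fzd5 (443 to 530 CPM) stand above all others, and the endoderm points of Rspo3 (37.4 to 73.4 CPM) below all others.

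Lrp6, a co-receptor of the beta-catenin branch, was at like levels in all types. It ranged from 301 to 582 CPM in YFP-positive cardiac, 349 to 486 CPM in YFP-negative cardiac, 381 to 405 CPM in endoderm and 254 to 391 CPM in hematopoietic mesoderm, so that all types overlapped. Its largest log2 difference between types was 0.38 ± 0.23. Lrp5 ranged from 18.1 to 163 CPM and overlapped likewise.

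Ror1, a receptor for Wnt5a, was lowest in hematopoietic mesoderm. It was at 0, 0.173 and 0 CPM there, at 48.7, 66.8 and 43.3 CPM in endoderm, at 42.0, 10.6 and 1.67 CPM in YFP-positive cardiac and at 4.86, 8.27 and 6.52 CPM in YFP-negative cardiac mesoderm. No library of another type reached down to the hematopoietic values. Endoderm was at least 84.8-fold higher than hematopoietic mesoderm (adjusted p 0.00516), and that call held in all 13 alternative fits. YFP-positive cardiac mesoderm was at least 29.0-fold higher than hematopoietic mesoderm (adjusted p 0.0223). The YFP-positive comparison had an adjusted p of 0.0537 with the replicate block, 0.273 with voom and 0.0627 without hematopoietic library 1. DESeq2 called it (1.2e-05). For YFP-negative cardiac against hematopoietic mesoderm the adjusted p was 0.0662 with edgeR, 0.00105 with DESeq2 and 0.220 with voom. Against endoderm, the YFP-negative cells had an adjusted p for Ror1 of 0.262 with edgeR, 0.0370 with DESeq2 and 0.0108 with voom. Ror2, its relative, was at 44.5, 35.5 and 31.7 CPM in endoderm and at most 13.6 CPM in the other libraries, and no pair of types passed with edgeR. DESeq2 called it for endoderm against hematopoietic mesoderm (0.0349, edgeR 0.171).

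Sfrp1 and Dkk1, the leading secreted antagonists, had their highest levels in endoderm. Sfrp1, which binds Wnt ligands and keeps them from their receptors, was at 590, 531 and 514 CPM in endoderm and at 205, 352 and 321 CPM in YFP-positive cardiac mesoderm. It was at 38.7, 41.2 and 17.4 CPM in YFP-negative cardiac and at 100.2, 5.89 and 3.36 CPM in hematopoietic mesoderm. The YFP-positive libraries were all above the YFP-negative ones and all below endoderm. Neither cardiac type passed against endoderm with edgeR (adjusted p 0.734 for YFP-positive, 0.0564 for YFP-negative), while voom called both (0.0197 and 8.1e-05). Endoderm was higher than hematopoietic mesoderm by 3.91 ± 0.94 in log2 (adjusted p 0.0325), which did not pass with only the 2 types (0.0905) or without endoderm library 1, 2 or 3 (0.0964, 0.0932 and 0.0926). The log2 difference between the cardiac types was 3.18 ± 0.91, with an adjusted p of 0.626, and it was positive in each of the 3 same-numbered pairs. Adjusted p for that difference ranged from 0.145 to 0.858 over 12 alternative fits, and DESeq2 gave Sfrp1 no adjusted p.

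Dkk1, which blocks the co-receptors Lrp5 and Lrp6, was at 211, 163 and 203 CPM in endoderm. It was at 43.9, 38.5 and 38.1 CPM in YFP-negative cardiac mesoderm and at 12.7, 1.82 and 11.5 CPM in YFP-positive cardiac mesoderm. Hematopoietic mesoderm had 34.2, 0 and 0.420 CPM. With edgeR, endoderm passed against no other type (adjusted p 0.132 for YFP-positive cardiac, 0.689 for YFP-negative cardiac and 0.0985 for hematopoietic mesoderm). Voom called all of these (0.0153, 0.00130 and 0.0115). Fits of only the 2 types compared called Dkk1 for endoderm against YFP-positive (0.0109) and YFP-negative cardiac mesoderm (0.000212). They did not call it against hematopoietic mesoderm (0.198). The order of the cardiac types was thus the opposite of that for Sfrp1, with no overlap for either gene, but the log2 difference of Dkk1 was -2.21 ± 1.30 (YFP-positive minus YFP-negative) with an adjusted p of 0.764. Sfrp5 was at 17.2, 13.7 and 25.0 CPM in endoderm and at 0 in every YFP-positive library, while YFP-negative library 2 alone of its type passed 1 CPM, at 14.2 CPM. For endoderm against YFP-positive cardiac mesoderm, edgeR gave Sfrp5 an adjusted p of 0.0954, DESeq2 0.00255 and voom 0.0134. The values against hematopoietic mesoderm were 0.0762, 0.00690 and 0.0352. Voom alone called it against YFP-negative cardiac mesoderm (0.0132, edgeR 0.978). Sfrp2 and Dkk3 did not exceed 22.9 and 14.4 CPM in any library.

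Rspo3, a secreted amplifier of Wnt signals, was lowest in endoderm. It was at 53.9, 73.4 and 37.4 CPM in endoderm, at 199, 169 and 147 CPM in YFP-positive cardiac, at 191, 175 and 167 CPM in YFP-negative cardiac and at 357, 383 and 163 CPM in hematopoietic mesoderm. All 9 mesoderm libraries were above all 3 endoderm libraries. Endoderm minus hematopoietic mesoderm was -2.45 ± 0.34 in log2 for Rspo3 (adjusted p 0.00157), which passed in all 13 alternative fits. The YFP-positive cells exceeded endoderm by 1.64 ± 0.33 (adjusted p 0.0233) and the YFP-negative cells by 1.69 ± 0.33 (adjusted p 0.0213). The YFP-positive call was lost without YFP-positive library 1 or 2 or endoderm library 1 or 3 (0.0881, 0.0605, 0.140 and 0.150). The YFP-negative call was lost without YFP-negative library 1, 2 or 3 or endoderm library 1 or 3 (0.0958, 0.0790, 0.0655, 0.130 and 0.129).

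Lgr5, a receptor for R-spondins, was at 365, 510 and 242 CPM in hematopoietic mesoderm and at 112, 195 and 125 CPM in endoderm, without overlap. It was at 116, 4.74 and 3.70 CPM in YFP-positive cardiac and at 51.3, 24.1 and 9.99 CPM in YFP-negative cardiac mesoderm. No pair passed with edgeR, and against hematopoietic mesoderm the adjusted p was 0.128 (YFP-negative) and 0.135 (YFP-positive). DESeq2 called both of these (0.0179 and 0.0430). Voom called Lgr5 for YFP-negative cardiac against hematopoietic mesoderm (0.0223) and endoderm (0.0213), and for endoderm against hematopoietic mesoderm (0.00619). Lgr4 overlapped between most types, with means of 21.5 to 70.0 CPM. The YFP-negative cardiac and endoderm libraries did not overlap for Lgr4, and voom called that difference (0.0471, edgeR 0.446). Rspo1 was at 0 in all hematopoietic libraries and at most 8.55 CPM elsewhere.

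None of the 3 nuclear genes passed a test with edgeR. Lef1, a TCF/LEF factor, was at 338, 385 and 579 CPM in YFP-positive and 476, 505 and 472 CPM in YFP-negative cardiac mesoderm. It was at 103, 220 and 159 CPM in endoderm and at 24.8, 41.4 and 204 CPM in hematopoietic mesoderm. The cardiac libraries overlapped neither, but against hematopoietic mesoderm the adjusted p was 0.0752 (YFP-positive) and 0.0884 (YFP-negative). DESeq2 called Lef1 in both of these comparisons (0.0175 and 0.0128), and voom called it for both cardiac types against endoderm (0.00391 and 0.000125). Axin2, a feedback inhibitor widely used as a readout of beta-catenin signalling, was at 110, 30.3 and 208 CPM in YFP-positive and 161, 167 and 229 CPM in YFP-negative cardiac mesoderm. Endoderm had 92.9, 85.7 and 69.4 CPM and hematopoietic mesoderm 19.8, 105 and 140 CPM, and no pair passed with edgeR. Voom called Axin2 for YFP-negative cardiac mesoderm against endoderm (0.0143), as did the fit of only those 2 types (0.00752). Tcf7 ranged from 34.9 to 216 CPM, with type means of 105 to 193 CPM.

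Divided by exon length, the families can be described by the share of each gene. Fzd7 supplied on average 69.2% of Frizzled transcripts per kb in YFP-positive cardiac, 65.7% in YFP-negative cardiac, 29.8% in endoderm and 43.6% in hematopoietic mesoderm. Fzd5 supplied 36.4% in endoderm and at most 4.13% in a mesoderm type, and Fzd10 supplied 22.8% in hematopoietic mesoderm, from 8.43 to 142 CPM over its libraries. Wnt5a and Wnt2b made up 37.5% and 37.7% of the ligand transcripts in YFP-positive and 39.3% and 35.7% in YFP-negative cardiac mesoderm, whereas Wnt8a made up 41.2% in endoderm. The antagonist transcripts were 91.1% Sfrp1 in YFP-positive cardiac mesoderm, and 57.2% Dkk1 and 23.8% Sfrp1 in YFP-negative cardiac mesoderm. Their sum was 221 ± 15.3 CPM per kb in endoderm, 73.3 ± 18.1 in YFP-positive cardiac, 30.7 ± 9.22 in YFP-negative cardiac and 18.8 ± 18.5 in hematopoietic mesoderm (SD, n = 3 each). The ligand sum had another order, at 84.8 ± 16.9 CPM per kb in YFP-negative cardiac, 55.7 ± 19.1 in YFP-positive cardiac, 27.9 ± 3.35 in endoderm and 25.2 ± 14.5 in hematopoietic mesoderm. These sums and shares were not tested.

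**Figure D3:**
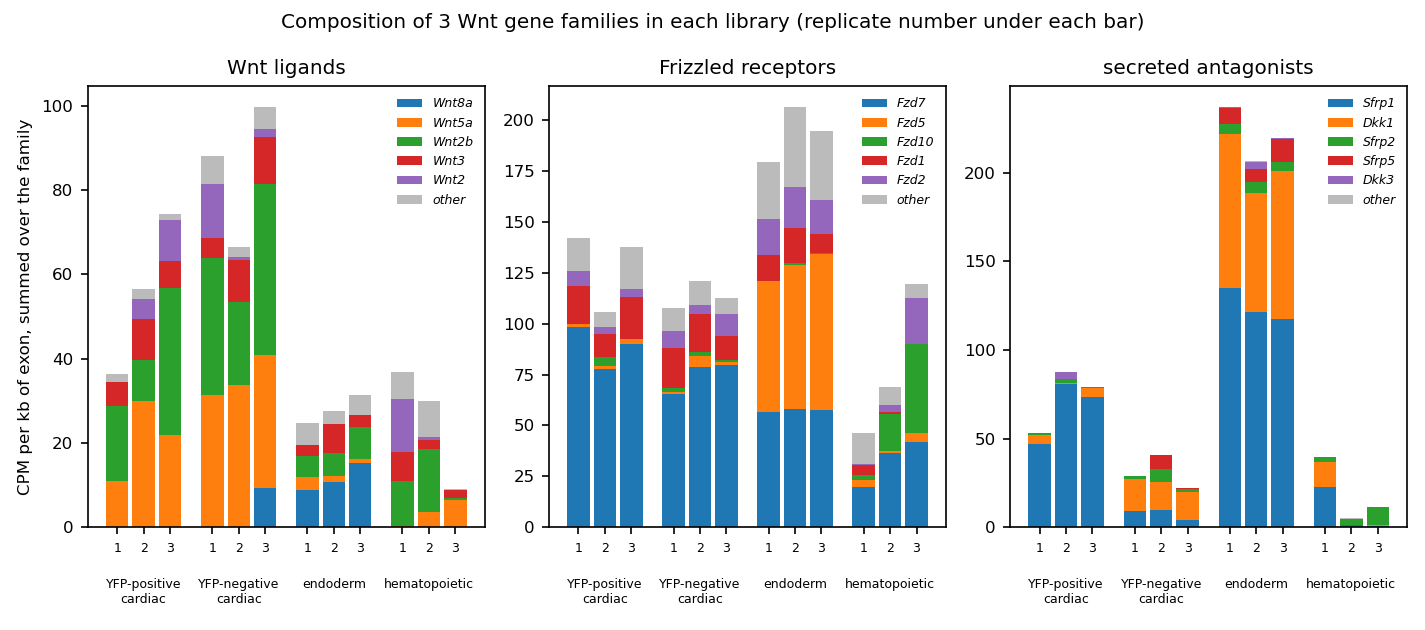
Summed CPM per kb of exon of the ligands, the Frizzled receptors and the secreted antagonists in each library (bars, numbered within type), split by gene with the 5 leading genes in colour and the rest in grey. The antagonist bars are 207 to 237 in endoderm and at most 87.8 elsewhere, and the Fzd5 share is visible in the endoderm bars.

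The comparison of the cardiac types, which asks whether a history of Foxa2 expression goes with different Wnt gene expression, called none of the 34 genes with edgeR, beside 0.0% of all genes. At an unadjusted p under 0.05 there were 6 of the 34, beside 7.49% of all genes. Voom called none, and DESeq2 called 1, Wnt8a, which had counts in 1 library of the 6. DESeq2 gave no adjusted p for Sfrp1, Dkk1, Dkk3, Fzd6 and Wnt9b and so could not call them. Libraries of the cardiac types did not overlap for 4 of the 34 genes (11.8%), Sfrp1, Dkk1, Wnt5a and Wnt5b, beside 12.1% of all genes. The median log2 difference was -0.20 over the 34 genes and 0.03 over all genes.

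Endoderm differed from each mesoderm type in a few of these genes. Against YFP-positive cardiac mesoderm 2 of the 34 were called, Fzd5 and Rspo3, beside 1.54% of all genes. Against YFP-negative cardiac mesoderm 3 were called, Fzd5, Rspo3 and Wnt5a, beside 1.31% of all genes. Against hematopoietic mesoderm 5 were called, with Fzd5, Fzd6, Ror1 and Sfrp1 higher and Rspo3 lower in endoderm, beside 5.65% of all genes. Libraries did not overlap for 18 of the 34 (30.3% of all genes), 21 (29.4% of all genes) and 17 (34.3% of all genes) in these 3 comparisons, which share the endoderm libraries.

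Cardiac was also compared with hematopoietic mesoderm. For the YFP-positive cells 2 genes were called, Fzd7 and Ror1, both higher in the cardiac cells, beside 1.79% of all genes, and with the replicate block 1 was called. For the YFP-negative cells Fzd7 alone was called, beside 0.593% of all genes, and none with the replicate block. Libraries did not overlap for 9 of the 34 (14.0% of all genes) and for 14 (18.6% of all genes). The plot of fitted differences sets the cardiac comparison beside that of endoderm with hematopoietic mesoderm.

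**Figure D4:**
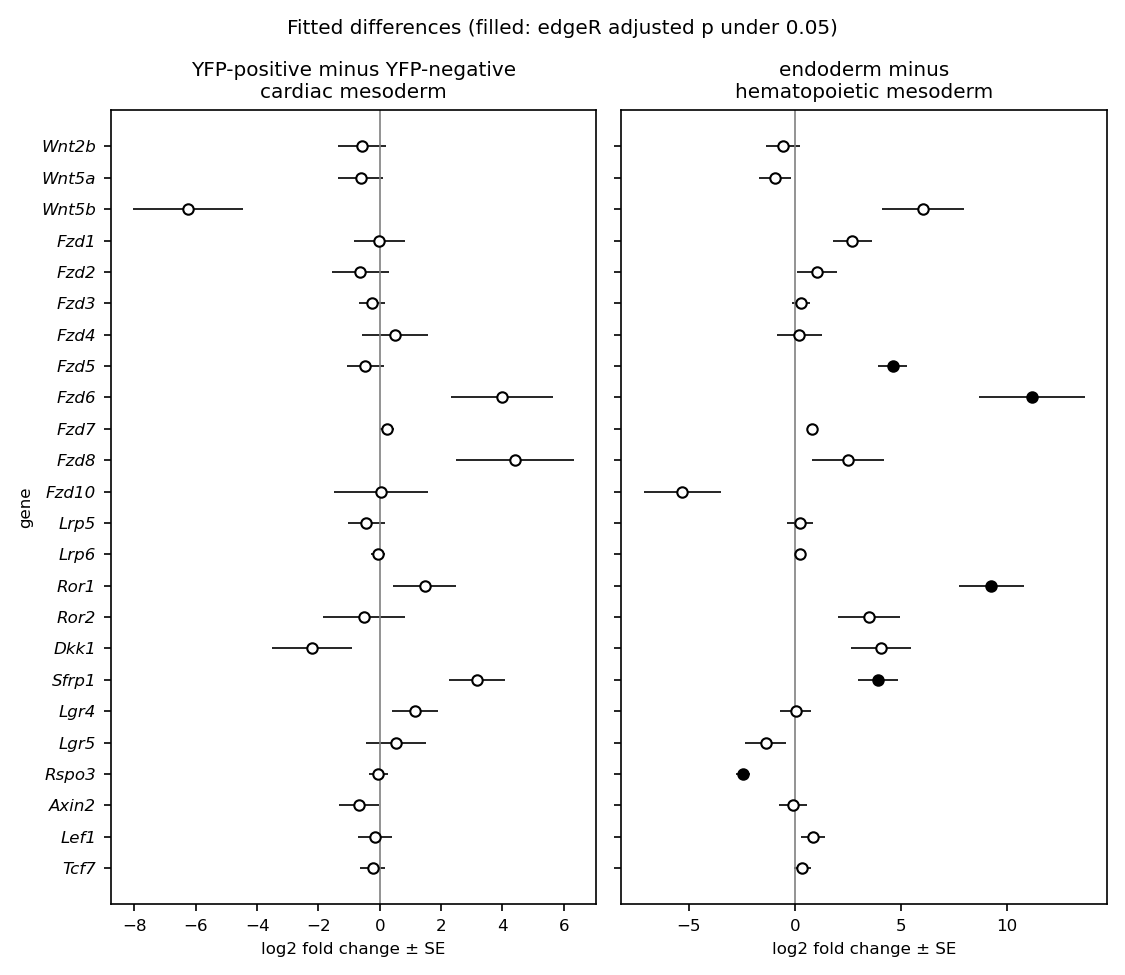
Log2 fold change with its standard error for the 24 genes, YFP-positive minus YFP-negative cardiac mesoderm (left) and endoderm minus hematopoietic mesoderm (right), with filled points for an adjusted p under 0.05. No point is filled on the left and 5 are filled on the right. Fitted values of genes at 0 in a type, such as Fzd6 and Wnt5b, are not bounds.

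The rest of the pathway was followed with 82 further genes in 5 lists, of which 74 were tested. They cover secretion and extracellular regulators, other receptors, transduction, planar polarity, and feedback or target genes. Between the cardiac types none of the 74 was called, beside 0.0% of all genes. Against endoderm, 4 were higher and 1 lower in each cardiac type, and they were the same genes. Wls, which carries Wnt proteins out of the cell, was at 196, 143 and 154 CPM in YFP-positive and 221, 145 and 144 CPM in YFP-negative cardiac mesoderm, against 53.6, 47.6 and 22.1 CPM in endoderm (adjusted p 0.0413 and 0.0404). The others higher in cardiac cells were the membrane inhibitor Apcdd1 and the growth genes Ccnd2 and Myc. The gene lower in cardiac cells was Cer1, a secreted antagonist of Nodal and BMP signals. Cer1 was at 357 to 478 CPM in endoderm, 10.4 to 67.7 CPM in YFP-positive and 2.35 to 4.76 CPM in YFP-negative cardiac mesoderm.

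Against hematopoietic mesoderm, 5 of the 74 were higher in the YFP-positive cells (Gpc4, Frzb, Cer1, Tcf7l2 and Mesp1) and 2 in the YFP-negative cells (Frzb and Mesp1), and none was lower. The shares called were 6.76% and 2.70%, beside 1.79% and 0.593% of all genes. Frzb, the Sfrp-family antagonist that carries no Sfrp symbol and so fell outside the rule, was at 86.4 to 105 CPM in endoderm, 12.9 to 89.0 CPM in both cardiac types and at most 1.73 CPM in hematopoietic mesoderm. Endoderm exceeded hematopoietic mesoderm in 8 of the 74 (Porcn, Gpc4, Frzb, Cer1, Tnks, Tcf7l2, Celsr1 and Prickle1) and was below it in 4 (Apcdd1, Gsk3b, Ccnd2 and Myc). Together they were 16.2% of the 74, beside 5.65% of all genes. Porcn, the enzyme that attaches the lipid to Wnt proteins, was at 36.1, 31.9 and 29.1 CPM in endoderm and at 0 in all hematopoietic libraries. Tcf7l2, a TCF factor, was at 472 to 491 CPM in endoderm, 333 to 374 CPM in YFP-positive cardiac, 190 to 243 CPM in YFP-negative cardiac and 30.9 to 131 CPM in hematopoietic mesoderm, so that no types overlapped.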

How the data were processed

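Total RNA from 12 sorted-cell libraries (4 types, 3 each) was purified with a nanoprep kit and amplified with low-input kits, per the labels' protocols. The deposited values are raw read counts for 38924 genes with 5 summary lines per library, made by the authors with STAR 2.5.0a, HTSeq 0.6.0, Picard and DESeq2 on build mm10 among the tools listed, per the submitters' processing notes, which give no role or order. The strand setting and the annotation release are not given in the sources used here. For 10 of the 53 genes, Axin2, Fzd5, Fzd6, Lef1, Notum, Rspo3, Sfrp2, Wnt5a, Wnt7b and Wnt11, a gene overlaps on the opposite strand, and none of those present in the files exceeded 72 counts. The summary lines, which stayed out of library sizes, held 34.6% to 43.6% of reads in no gene and 35.1% to 44.8% aligned to several places.

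Counts were fitted in R 4.3.3 with edgeR 4.0.16 (quasi-likelihood, TMM scaling, default filter, 14170 genes kept, all 12 libraries, 8 residual degrees of freedom). The 6 pairs of types and any difference among them were tested two-sided, with Benjamini-Hochberg adjustment over all genes and a threshold of 0.05. Standard errors come from the log2 fold change and the F statistic. Alternatives were RLE scaling, no filter, a mean of at least 5 CPM, the replicate block, DESeq2 1.42.0, voom with quality weights (limma 3.58.1), only the 2 types compared, and leaving out each library. Same-numbered libraries of all types share the date in their file names, whose meaning the labels do not state, so the block is given where it changed a call. Their deviations from the type means correlated at 0.01 on average (-0.02 to 0.03). Fits were tested on simulated data. Exon lengths come from GENCODE M21 and upstream sequences from RefSeq (GRCm38.p6). Genes named with values in every library were called somewhere or reached a mean of 30 CPM in a type, and others are given by range, or by value where a count turned on them. Wnt8a, Sfrp5 and the ranges of other lower genes were chosen after their values were seen. The genes and lists were chosen with earlier results of these data known.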

Additional observations from a re-analysis of the deposited data

How the results depend on the processing

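None of the results listed here changed direction under any alternative. RLE scaling kept every count of called Wnt genes within 1.5 times of the reported one. In each pair of counts the first is of the Wnt genes and the second of all genes called in the same fit. Between the cardiac types DESeq2 called 1 gene (of 117) in place of 0 (of 0). For YFP-positive cardiac mesoderm against endoderm (2 of 218), DESeq2 called 6 of 929, voom 11 of 1130 and the fit of only the 2 types 9 of 1063. For YFP-negative cardiac mesoderm against endoderm (3 of 185), the count was 5 of 253 without a filter, 7 of 605 with DESeq2, 18 of 1812 with voom and 15 of 1360 with only the 2 types. For YFP-positive cardiac against hematopoietic mesoderm (2 of 253), it was 7 of 308 without a filter, 1 of 133 with the replicate block, 6 of 1509 with DESeq2, 0 of 18 with voom and 0 of 13 with only the 2 types. For YFP-negative cardiac against hematopoietic mesoderm (1 of 84), it was 5 of 174 without a filter, 0 of 31 with the replicate block, 10 of 1079 with DESeq2 and 0 of 10 with only the 2 types. For endoderm against hematopoietic mesoderm (5 of 800), it was 11 of 1902 with DESeq2, 10 of 1225 with voom and 8 of 1258 with only the 2 types. For any difference among the 4 types (8 of 854), it was 14 of 1255 without a filter and 14 of 1097 with voom, and voom put 6 of 393 genes highest in endoderm in place of 1 of 43. Leaving out 1 library at a time gave 0 to 0, 1 to 2, 1 to 2, 2 to 4, 0 to 4 and 3 to 6 called genes in the 6 pairs in that order, 3 to 9 for any difference, and 1 to 1 highest in endoderm. The replicate block ended the calls of Wnt5a, Ror1 and Fzd7 given with the results, that of Fzd6 over the 4 types (adjusted p 0.0627) and that of Wnt5b, and no other call of these genes. The cause of these differences was not tested. Genes under 3 counts cannot be compared at this depth, and with 3 libraries a type, fits that leave 1 out have 7 residual degrees of freedom and assume that the remaining pair varies like the other types.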

Other observations

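Some of these genes were unequal between libraries of 1 type, reaching 100 counts in some library but not passing 3 in another. In hematopoietic mesoderm 5 of the 22 genes that reached 100 counts did so (Dkk1, Fzd8, Wnt2, Wnt4 and Wnt16), beside 1335 of all 8922 genes reaching 100 counts there. In YFP-positive cardiac mesoderm 3 of 21 did (Fzd6, Fzd8 and Wnt2), beside 9.30% of all such genes, and in YFP-negative cardiac mesoderm 2 of 23 (Sfrp5 and Wnt8a), beside 3.48%. In endoderm 1 of 27 did, Wnt7b, beside 0.518%. Wnt4 was at 17.7 CPM in hematopoietic library 2 and at 0 in the other 2 hematopoietic libraries. Wnt16, a ligand linked to blood stem cell specification, was at 27.2, 18.7 and 0 CPM in the hematopoietic libraries and at most 7.84 CPM elsewhere.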
